A study of Mus musculus with 9 samples.

Results

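*Mbp*, *Mobp*, *Mog*, *Mag* and *St18*, genes of the myelin sheath and of the cells that make it, were followed through the cholinergic neurons of the adult mouse spinal cord. They are 5 of the 21457 features of the matrix of corrected counts, and were chosen by their levels in these same data, in which *Mbp* was high in the clusters S1 and S2 while other genes of oligodendrocytes stayed low. The level of a member across clusters is therefore given here as a description without a test. Single nuclei positive for GFP were sorted from cords of mice aged 8 weeks, and 12 mice (6 male, 6 female) were pooled 4 to a pool. All mice carried the same 2 alleles, written as *Chat-IRES-Cre::Sun1-sfGFP* for the strain and as Chat-iCre:+/wt with SUN-SfGFP:+/wt for the genotype, so that *Chat*-driven Cre switched on a GFP-tagged protein of the nuclear envelope, also in cells that had used *Chat* only earlier in life. The cords of a pool were cut into cervical, thoracic and lumbar/sacral lengths, 1 library each, which makes 3 libraries per region and 9 in all. Replicate 1 joined 2 males with 2 females, replicate 2 held 4 males and replicate 3 held 4 females, so sex cannot be told apart from pool. The authors' labels place 16042 nuclei in 21 clusters: S1 (type 3), S2 (alpha) and S3 (gamma) skeletal motor neurons (MNs), V1 to V10 visceral MNs and I1 to I8 interneurons.

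Myelin is the lipid-rich membrane that oligodendrocytes in the central nervous system, and Schwann cells in the nerves, wrap around axons. Myelin basic protein, the product of *Mbp*, holds the inner faces of this membrane together, and its mRNA is carried out into the processes of the oligodendrocyte. The same gene has a far upstream start from which the longer Golli transcripts are made, and these are known from neurons and immune cells as well as from the oligodendrocyte lineage.

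Of 16042 nuclei, those labelled S1 and S2 made up 2813, S3 2241, visceral MNs 5613 and interneurons 5375. The values are model-corrected counts, whose median total per nucleus ran from 4712 in lumbar/sacral replicate 1 to 16127 in the library labelled cervical replicate 2. They were summed over the nuclei of a cluster in a library and scaled to 1000000, called CPM here. No CPM is divided by gene length, so sums over genes and ratios between genes are compared only between groups of nuclei, not as levels of one gene against another. The nuclei were neuronal by their markers: in S1 and S2, *Snap25*, a synaptic protein gene, was at 777 CPM ± 161 (SD, n = 9 libraries), *Tns1*, the study's marker of skeletal MNs, at 378 CPM ± 81.3 and *Chat*, the acetylcholine-synthesizing enzyme, at 276 CPM ± 35.8. *Fbn2*, a marker of visceral MNs, was at 20.9 CPM ± 13.5 in S1 and S2 and at 634 CPM in visceral MNs. In 2 libraries the labels did not match the positional genes. *Hoxa9*, a gene of the posterior body, was at 9.69 CPM in the library labelled cervical replicate 2 and at 9.35 and 9.04 CPM in thoracic replicates 1 and 3, but at 0.507 CPM in the library labelled thoracic replicate 2 and at 0.412 and 0.213 CPM in cervical replicates 1 and 3. *Hoxc5* divided the libraries in the same way. Results that rest on these 2 libraries were also computed without them. Between libraries, 33 cell barcodes were shared.

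The *Mbp* gene lies on chromosome 18 of GRCm38 from 82475146 to 82585637, on the plus strand, and spans 110.5 kb. Of its 16 annotated transcripts, 4 start within 1 kb of the upstream end of the gene, as Golli transcripts do, and 11 start 79.3 kb further downstream, from position 82554470, as the transcripts of classic myelin basic protein do. The remaining transcript starts further inside the gene. All 11 downstream transcripts and 2 of the 4 upstream ones end within 2 kb of the same 3′ end, and the other 2 upstream transcripts end earlier. Libraries were built from the 3′ ends of transcripts, reads were counted against a reference of unspliced transcripts, and the deposited values hold 1 number per gene and nucleus. The corrected count of *Mbp* is thus a sum over both starts, and which start it came from was not tested. A processed pseudogene, *Rpl21-ps8*, lies inside the gene on the other strand and is not a row of the matrix.

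**Figure D1:**
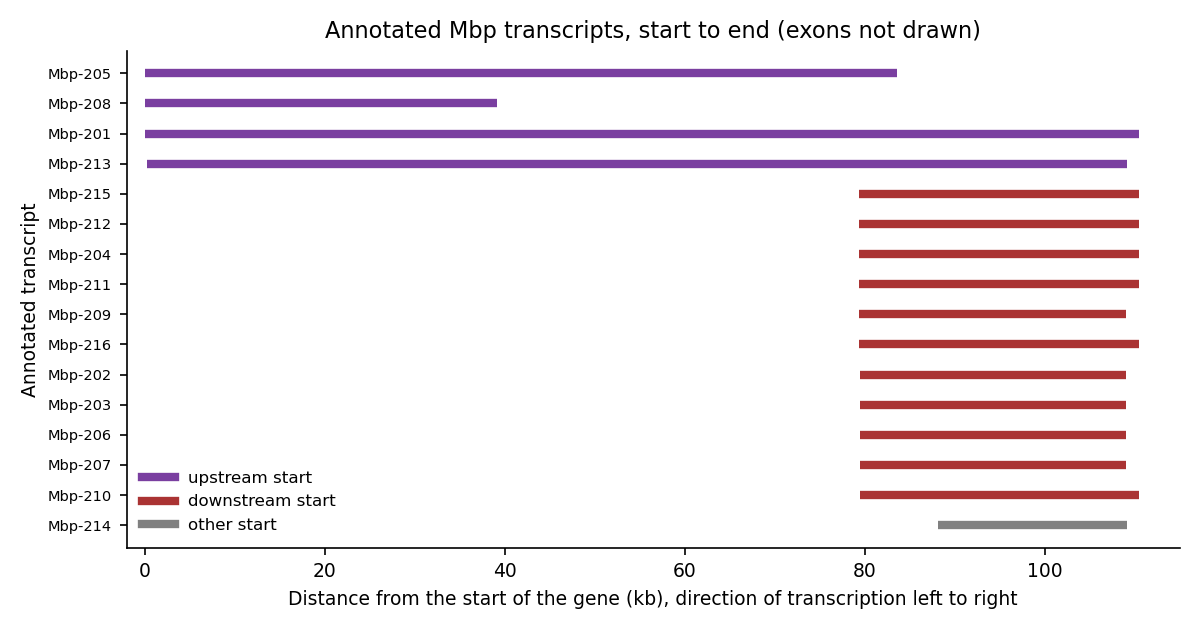
Annotated *Mbp* transcripts, drawn from start to end by their distance in kb from the start of the gene (x axis), 1 transcript a line. The 4 upstream transcripts (purple) begin at the left edge and the 11 downstream ones (red) begin at 79.3 kb; 2 of the 4 upstream transcripts reach the 3′ end that the 11 share.

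In S1, *Mbp* was at 48.1, 88.0 and 113 CPM in the lowest, the median and the highest of 9 libraries, and in S2 at 30.4, 81.6 and 138 CPM. The means were 88.3 CPM ± 18.7 and 89.3 CPM ± 30.9 (SD, n = 9), and rested on 1033 and 918 corrected counts. In the other 19 clusters the mean lay between 6.22 CPM in I5 and 46.1 CPM in V9. On the scale of log2(CPM + 5), S1 and S2 together lay 1.74 above the mean of the other 19 clusters. Of the 12131 genes that reached 10 CPM in a cluster mean, 6.03% were higher there by at least 1, and *Mbp* ranked 239 by this difference. The difference is the contrast that chose the gene and was not tested.

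**Figure D2:**
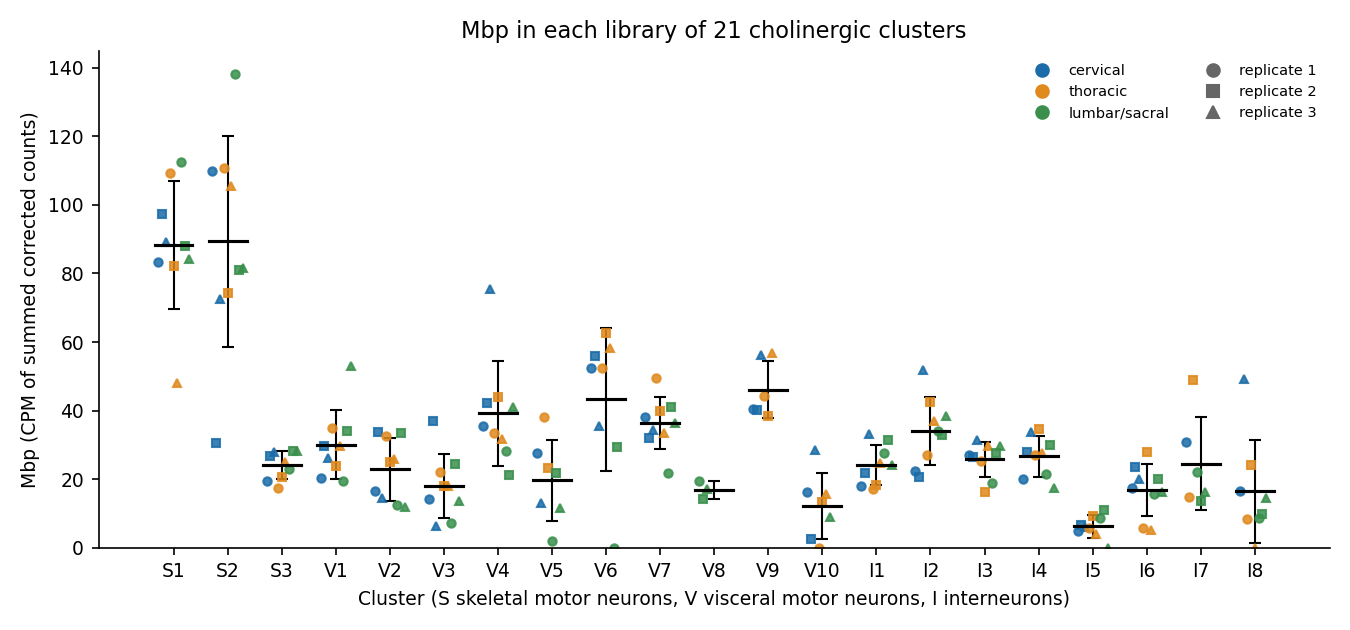
*Mbp* in CPM (y axis) in every library of the 21 clusters (x axis). Each point is a library with at least 10 nuclei of the cluster, coloured by labelled region and shaped by replicate; the line and bars are the mean and SD. S1 and S2 have means of 88.3 and 89.3 CPM, and the next, V9, has 46.1 CPM.

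Inside single libraries the order was mostly the same. S1 lay above every one of the other clusters compared, except S2, in 8 of 9 libraries, and S2 lay above them in 7 of 9. Of the other 19 clusters, 15 to 18 had the 10 nuclei needed in a given library. V9, the next highest, did not have them in any lumbar/sacral library. The exceptions were S1 in thoracic replicate 3 (48.1 CPM), with 2 clusters above it, S2 in cervical replicate 3 (72.5 CPM), which V4 exceeded at 75.3 CPM, and S2 in the library labelled cervical replicate 2 (30.4 CPM), with 6 visceral clusters above it. That last library had 71 nuclei of S2 and 37 of S1, and its S1 nuclei were at 97.4 CPM. In thoracic replicate 3 the pair was the other way round, with 26 nuclei of S2 at 106 CPM. Without both libraries labelled replicate 2 of cervical and thoracic cord, S1 and S2 together were at 92.1 CPM ± 20.2 (n = 7), and with all libraries at 86.7 CPM ± 21.5 (n = 9).

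S3, the third cluster of skeletal MNs, did not share this level. Its *Mbp* was at 17.6, 24.97 and 28.2 CPM in the lowest, median and highest library, and no library of S3 reached any library of S1 or S2. Within a library, S1 was 1.93 to 6.22 times and S2 1.13 to 6.30 times as high as S3.

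Of the 20 steps between neighbours in the order of cluster means, only the step from S1 down to V9, 42.2 CPM, was larger than the larger SD of the pair. S2 and S1 differed by 1.05 CPM, far within their spread. The visceral clusters V9, V6, V4 and V7 came next, at 46.1, 43.3, 39.2 and 36.3 CPM, followed by the interneuron cluster I2 at 34.0 CPM and V1 at 30.1 CPM. I4, I3, I7, S3, I1 and V2 lay between 22.9 and 26.7 CPM. V5, V3, V8, I6, I8 and V10 lay between 12.3 and 19.7 CPM, and I5 was lowest at 6.22 CPM ± 3.22, with a range of 0 to 10.9 CPM over 9 libraries. V9 and I7 had 10 nuclei or more in 6 libraries only, and V8 in 3.

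Nuclei in which *Mbp* was found at all made up 50.1% ± 14.6 of S1 and 49.7% ± 15.1 of S2 (SD, n = 9), against 18.2% ± 6.31 of S3 and 5.66% ± 3.21 of I5, at median totals of 7413, 7494, 7323 and 7601 corrected counts per nucleus. With every nucleus thinned to a total of 4600, and the 8.63% of nuclei below that total left out, the shares were 34.1% ± 7.97, 34.4% ± 12.7, 9.41% ± 2.23 and 2.70% ± 2.14. No cell type that should lack *Mbp* is among these nuclei to give a background share. The higher sum in S1 and S2 was spread over many nuclei with few counts each: of 2813 nuclei, 1458 had none, 928 had 1, 303 had 2 and 124 had 3 or more, with 7 as the highest value. In S3, 1881 of 2241 nuclei had none and 4 had 3 or more, 1 of them with 11.

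The other 4 members were near the floor in every cluster. *Mobp*, the gene of a small basic protein of compact central myelin, lies on chromosome 9 from 120149707 to 120181484 (plus strand), and the transcript *Gm38642* overlaps its end on the same strand. In S1 and S2 together it was at 0, 1.66 and 5.57 CPM in the lowest, median and highest library, from 38 corrected counts in 2813 nuclei. Its cluster means ran from 0.615 CPM in I4 to 2.62 CPM in V6. S1, at 2.12 CPM ± 1.28, and S2, at 1.09 CPM ± 2.23, did not stand out from the rest.

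*Mog* encodes a glycoprotein of the outermost myelin surface and lies on chromosome 17 from 37010743 to 37023398 (minus strand). In S1 and S2 it was at 0 CPM in 5 of 9 libraries and at most at 3.78 CPM, from 13 corrected counts. Its cluster means ran from 0.430 CPM in V8 to 4.78 CPM in I7, where 4 of 160 nuclei carried it. The 4 libraries in which S1 and S2 held a count were the 3 lumbar/sacral ones and thoracic replicate 3.

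*Mag*, a glycoprotein of the membrane layer that faces the axon, lies on chromosome 7 from 30899176 to 30914873 (minus strand). It was at 0, 1.52 and 3.24 CPM in S1 and S2, from 27 corrected counts, and its cluster means ran from 0.430 CPM in V8 to 4.72 CPM in V7. *St18*, a zinc finger transcription factor used in oligodendrocyte maturation, spans 374 kb of chromosome 1 from 6487231 to 6860940 (plus strand). It was at 0, 1.11 and 4.86 CPM in S1 and S2, from 38 corrected counts, and its cluster means ran from 0.641 CPM in V10 to 6.35 CPM ± 8.74 in I7. In 61 of the 84 cluster means of these 4 genes the SD over libraries was at least as large as the mean, so no order of single clusters was read. By group, *Mag* was at 2.94 CPM ± 0.965 in visceral MNs and 2.03 CPM ± 1.11 in interneurons (SD, n = 9). It was at 1.35 CPM ± 1.24 in S1 and S2 and 1.09 CPM ± 0.770 in S3. The ranges of the libraries overlapped among these groups, and the difference was not tested.

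**Figure D3:**
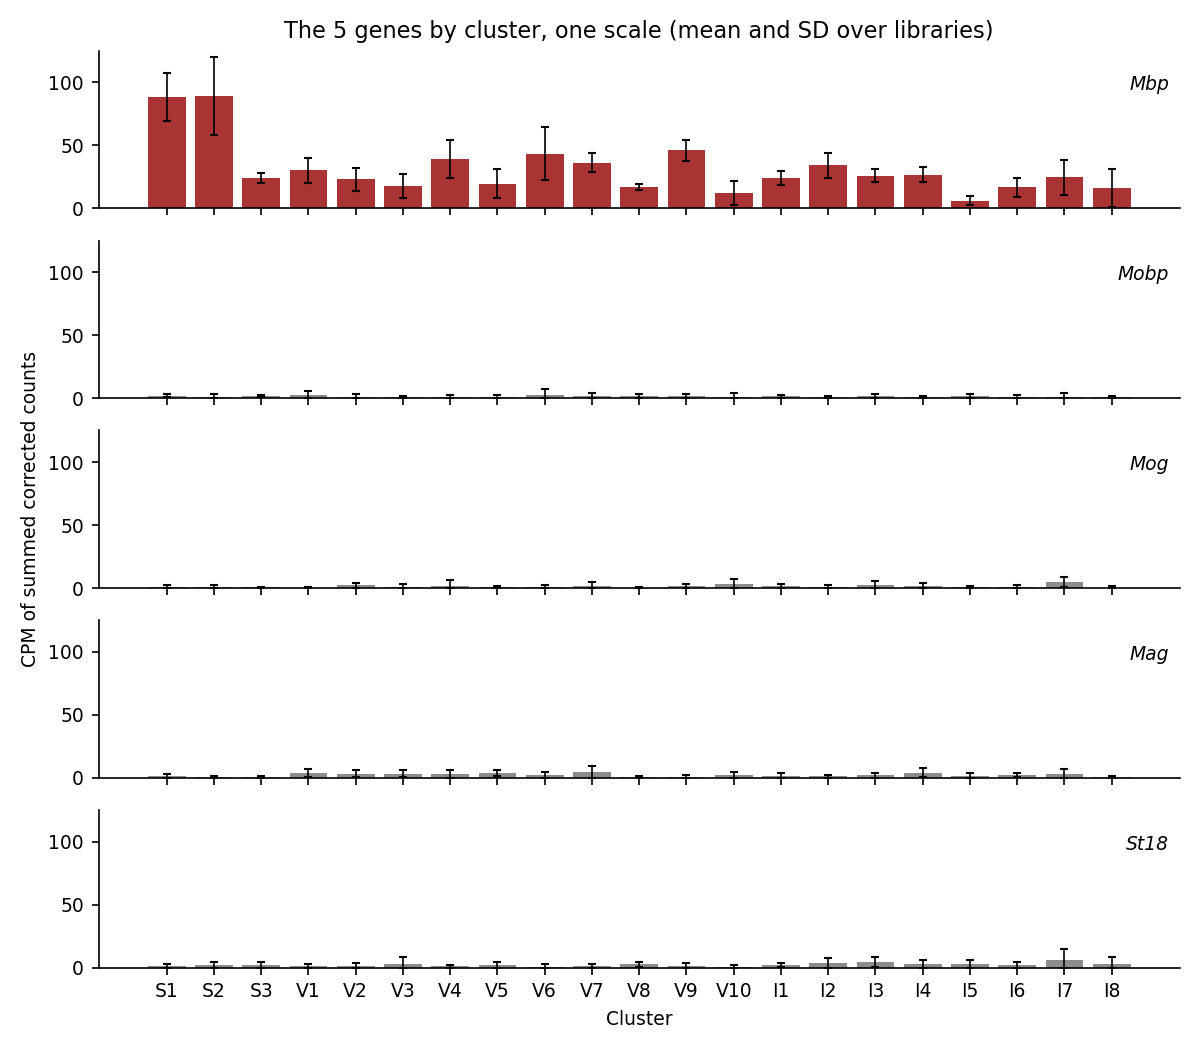
Mean CPM (y axis, the same scale in all panels) of the 5 genes in the 21 clusters (x axis); bars are means over libraries and error bars the SD, cut at 0. *Mbp* reaches 88.3 and 89.3 CPM in S1 and S2, and *Mobp*, *Mog*, *Mag* and *St18* stay at or below 6.35 CPM in every cluster.

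Summed over the 4 genes *Mobp*, *Mog*, *Mag* and *St18*, S1 and S2 held 2.77 to 13.5 CPM over the libraries, S3 2.08 to 11.9, visceral MNs 4.55 to 11.4 and interneurons 4.47 to 10.8. These ranges overlapped among all 4 groups, whereas for *Mbp* the range of S1 and S2 (55.1 to 122 CPM) overlapped none of the other groups, which all stayed at or below 38.1 CPM, as the choice of the genes had set.

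The whole list of 18 oligodendrocyte markers, which holds *Mobp*, *Mog* and *Mag* but neither *Mbp* nor *St18*, was also summed. The sum was 34.8 to 61.5 CPM in S1 and S2, 43.7 to 81.6 in S3, 34.9 to 61.0 in visceral MNs and 39.0 to 57.5 in interneurons. S3, with the lowest *Mbp* of the skeletal clusters, had the highest median sum, 65.8 CPM, to which *Ugt8a*, an enzyme of galactolipid synthesis, gave 30.8 CPM. In S1 and S2, 15 of the 18 markers were under 5 CPM and 7 under 1 CPM, and none was at 0. *Sox10*, the defining transcription factor of the lineage, had 1 corrected count in 2813 nuclei of S1 and S2 and 11 in all 16042 nuclei. *Gjb1* had 9 and *Opalin* 9 in S1 and S2.

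The level of *Mbp* was also divided by this sum within each library. The ratio was 1.31 to 3.16 in S1 and S2, with a median of 1.57, and 0.297 to 0.571 in S3, 0.401 to 0.970 in visceral MNs and 0.381 to 0.683 in interneurons. High *Mbp* beside low oligodendrocyte genes is what chose the list, so the higher ratio in S1 and S2 restates that choice and is no separate result.

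**Figure D4:**
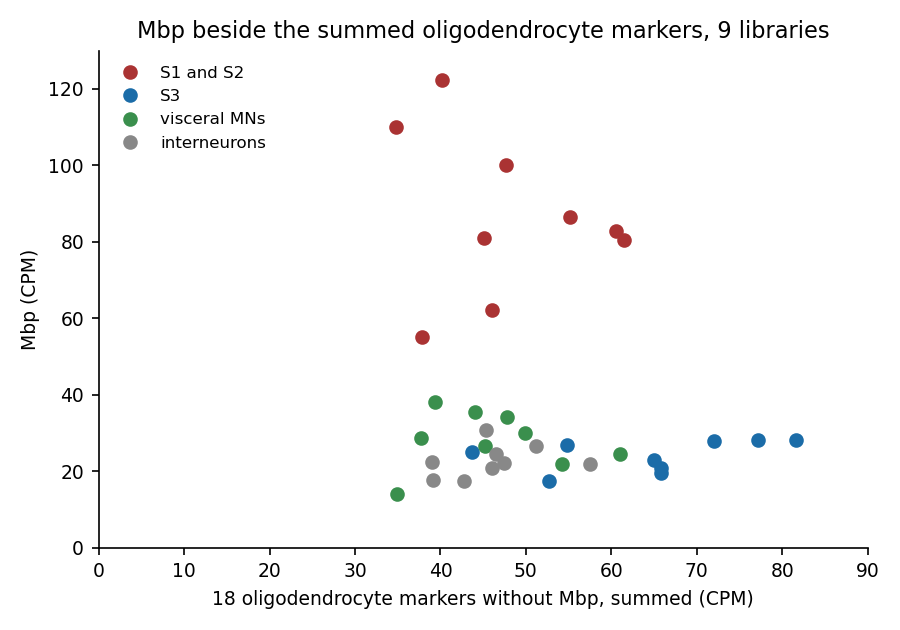
*Mbp* in CPM (y axis) against the summed CPM of 18 oligodendrocyte markers (x axis) in 4 groups of nuclei, 1 point for each of the 9 libraries of a group. The points of S1 and S2 lie at 55.1 to 122 CPM of *Mbp*, above all others, over the same range of marker sums (34.8 to 61.5 CPM) as visceral MNs (34.9 to 61.0 CPM).

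Nuclei with and without *Mbp* were also compared for oligodendrocyte RNA inside S1 and S2. Any of the 18 markers was found in 29.1% ± 9.18 of nuclei with no *Mbp* count, in 32.7% ± 8.28 of those with 1 and in 33.2% ± 9.69 of those with 2 or more (SD, n = 9 libraries). The sum of the 18 markers was 47.6 CPM ± 11.4, 48.0 CPM ± 7.83 and 53.8 CPM ± 17.4 in the same order, at median totals of 7346, 7470 and 8771 corrected counts. These differences were within the spread between libraries. When the 833 nuclei of S1 and S2 with a corrected count of any of the 18 markers were left out, *Mbp* was at 85.2 CPM ± 22.7 in the remaining 1980, against 86.7 CPM ± 21.5 in all. The same step left S3 at 24.0 CPM, visceral MNs at 27.2 CPM and interneurons at 23.9 CPM. In S3 the 35 nuclei with 2 or more *Mbp* counts had a marker sum of 121 CPM ± 104 (n = 8 libraries), against 62.4 CPM ± 12.5 (n = 9) in those with none, a difference also within the spread.

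Markers of other cells were at low levels too, with named exceptions. In S1 and S2, the median library held 32.0 CPM of 8 astrocyte markers, of which *Slc1a2* gave 26.0 CPM, 42.7 CPM of 7 microglia markers, of which *P2ry12* gave 30.5 CPM on average, 5.49 CPM of 4 markers of oligodendrocyte precursors, 16.0 CPM of 7 vascular markers, 11.7 CPM of 4 ependymal markers and 15.6 CPM of 5 Schwann cell markers. *Tmem212* (ependymal) and *Egr2* (Schwann cell) were at 0 in S1 and S2. The microglia sum reached 148 CPM in the highest library of S1 and S2 and 152 CPM in that of S3.

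Among the 15 genes of the list of myelin structure, 6 reached 10 CPM in any cluster mean. Of these, *Mbp*, which this contrast had chosen, and *Pmp22* were higher in S1 and S2 than in the mean of the other 19 clusters. They were higher by at least 1 on the log2(CPM + 5) scale, and *Tspan2* was lower by as much. The median of the 6, *Mbp* included, was 0.02, as over all 12131 genes (0.02). By that measure 6.03% of all genes were higher and 3.33% lower. *Pmp22*, a protein of compact peripheral myelin, was at 23.0 CPM ± 12.1 in S1 and S2, with 43.8 CPM in S2, but also at 35.6 CPM in S3, where *Mbp* was low. Its difference from the other 19 clusters was 0.72 in S1 and 2.68 in S2. Of the 5 genes of myelin lipids, 3 reached 10 CPM, with a median of 0.30, and *Gal3st1*, the sulfatide-making enzyme, was higher by at least 1. It was at 25.8 CPM ± 5.15 in S1 and S2 and at 21.8 CPM in S3. Of the 12 oligodendrocyte regulators, 2 reached 10 CPM. *Myt1* was at 16.2 to 37.4 CPM over the clusters and lay 0.35 above the other 19 clusters in S1 and S2. *Zfp536*, a zinc finger repressor, was at 8.23 to 545 CPM, and its mean over S1 and S2 (−0.08) joined opposite differences, 1.46 above the other 19 clusters in S1 and −1.62 in S2. Of the 18 oligodendrocyte markers, 5 reached 10 CPM, with a median of −0.06, and none was higher or lower by 1.

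Over the 21 cluster means of log2(CPM + 5), the genes most like *Mbp* were *Ablim1*, an actin-binding LIM protein gene (Pearson r = 0.811), *Fbxw10* (0.786), *Mroh5* (0.769), *Prkcd*, the protein kinase C delta gene (0.764), and *Kctd6* (0.760). *Ablim1* was at 563 and 703 CPM in S1 and S2 and at 374 CPM in S3. *Prkcd* was at 135 and 83.9 CPM in S1 and S2 and at 4.34 CPM in S3. All 5 were highest in S1 or S2, the clusters whose high level chose *Mbp*. None of them is on the myelin or oligodendrocyte lists. Few genes of those lists were among the 12131 that reached 10 CPM in a cluster mean, so their absence here says little. The 21 points share their libraries, and these values are descriptions.

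The same rule was applied to the other 4 members, whose cluster means spanned only 0.345 to 0.754 on that scale against 3.09 for *Mbp*. *Bet1*, *Ap4s1*, *Klf13*, *Fgf7* and *Atp7a* were most like *Mobp* (r of 0.635 to 0.688). *A630012P03Rik*, *Rpl9*, *Ubqln4*, *Vegfc* and *Faim2* were most like *Mog* (r of 0.700 to 0.751), and all 5 were highest in I7. *Nudcd3*, *Itsn1*, *Htt*, *Lrrc9* and *Rsph9* were most like *Mag* (r of 0.756 to 0.796). *Trpm3*, *Hoxb2*, *Amigo1*, *Skap1* and *Hoxb3* were most like *St18* (r of 0.819 to 0.874), each highest in one of the interneuron clusters I2, I4 and I7.

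The region of the cord was not used to choose the members, and levels were therefore tested between lumbar/sacral cord and the other 2 regions. *Mbp* in S1 and S2 was at 100, 55.1 and 81.1 CPM in cervical replicates 1, 2 and 3, at 110, 80.4 and 62.1 CPM in thoracic and at 122, 86.5 and 82.8 CPM in lumbar/sacral ones. Lumbar/sacral cord was higher than the mean of the other regions within each of the 3 pools, but the ranges overlapped. The log2 fold change was 0.26 ± 0.23 (SE), with an adjusted p of 0.963 by limma over 10129 genes. Of these genes 0.00987% were called, which is *Hoxd11* alone, a posterior homeobox gene at 22.5 CPM in lumbar/sacral cord and at 0 elsewhere. It lost the call without cervical replicate 2 and without lumbar/sacral replicate 1, 2 or 3. Without lumbar/sacral replicate 1 another gene, lower in lumbar/sacral cord, was called in its place. With all libraries, 260 genes had an unadjusted limma p under 0.05. The median log2 fold change of all genes was 0.11 in this comparison and −0.01 when libraries were scaled by the median of ratios. Under that scaling the fold change of *Mbp* was 0.12 and it was not called.

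**Figure D5:**
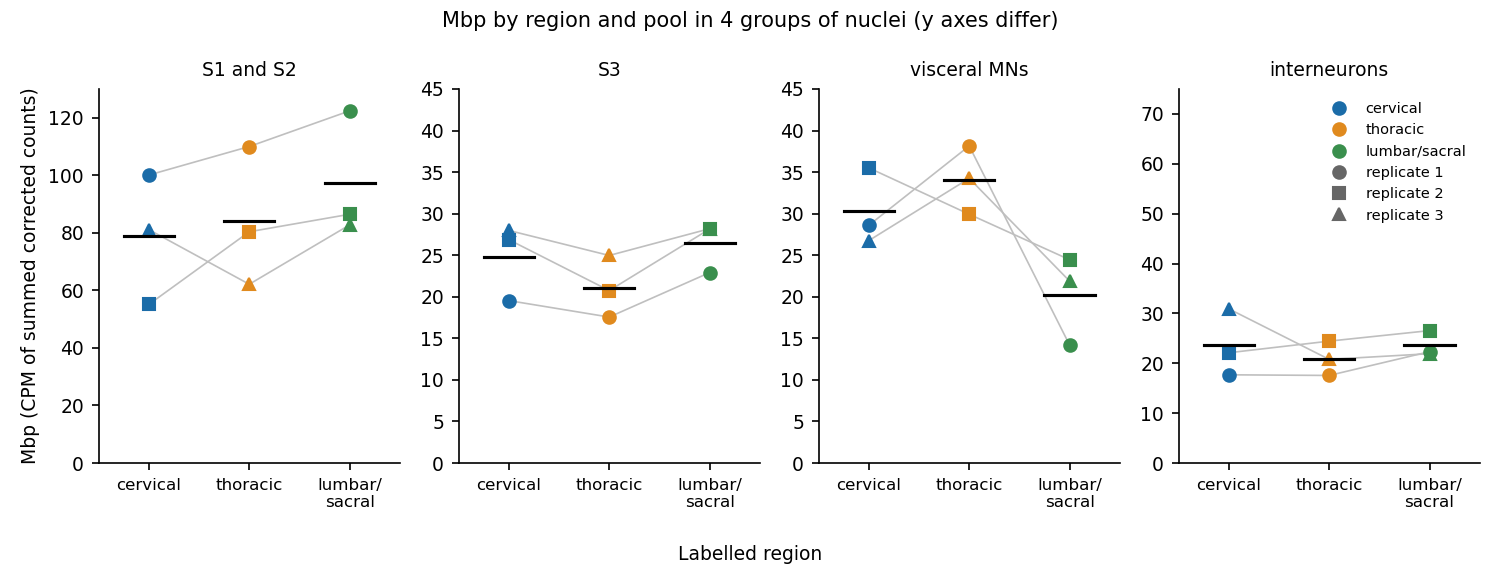
*Mbp* in CPM (y axes, which differ) by labelled region (x axis) in 4 groups of nuclei; each point is a library, grey lines join the libraries of a pool and black lines are means of 3. In visceral MNs the 3 lumbar/sacral libraries, at 14.2 to 24.5 CPM, lie below all 6 others, and in S1 and S2 replicate 1 lies above the other pools in every region.

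In S1 and S2 the means of the pools were 111, 74.0 and 75.3 CPM, and those of the regions 78.8, 84.2 and 97.2 CPM. All 3 libraries of replicate 1, at 100 to 122 CPM, lay above all 6 of replicates 2 and 3, at 55.1 to 86.5 CPM. Replicate 1 was the lowest pool in S3 (20.01 CPM ± 2.70, n = 3, against 25.3 ± 3.96 and 27.1 ± 1.80) and in interneurons (19.2 CPM ± 2.72, against 24.4 ± 2.22 and 24.5 ± 5.55). The pool is confounded with sex, and this difference was not tested.

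*Mbp* was found in 43.2% ± 3.95 of S1 and S2 nuclei in lumbar/sacral libraries (SD, n = 3) and in 50.1% ± 10.6 in the 6 others. A two-sided exact permutation test over 84 groupings gave p = 0.369, and the smallest p it allows is 0.0119. At a thinned total of 4600 the direction turned, to 38.1% ± 7.29 against 30.4% ± 8.75 (exact permutation p = 0.214). This test does not use the pools. Within them the thinned lumbar/sacral share was the highest of the 3 regions each time, at 46.1% against 39.2% and 42.9% in cervical and thoracic cord of replicate 1, 36.3% against 20.4% and 27.3% in replicate 2 and 31.8% against 28.3% and 24.3% in replicate 3. Unthinned, it was the highest in none of the 3 pools. The order of the shares thus depended on thinning. The median total of S1 and S2 nuclei was 4940 in lumbar/sacral replicate 1, close to the limit of 4600, and 5920 or more in the other libraries. The thinned share of lumbar/sacral replicate 1 therefore rests on the deeper part of its nuclei.

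In visceral MNs, *Mbp* was at 28.6, 35.5 and 26.8 CPM in cervical replicates 1, 2 and 3, at 38.1, 29.9 and 34.2 CPM in thoracic and at 14.2, 24.5 and 21.9 CPM in lumbar/sacral ones. The 3 lumbar/sacral libraries were the 3 lowest of 9. The log2 fold change was −0.58 ± 0.16 (SE), with an unadjusted limma p of 0.00601 and an adjusted p of 0.100 over 10031 genes, of which 4.27% were called, or 737 genes in place of 428 with the pool as a block. *Mbp* was not called, and its adjusted p ran from 0.0601 to 0.338 over 16 alternatives. Without both libraries whose labels did not match the *Hox* genes, the adjusted p was 0.157. The makeup of visceral MNs moved with region: V4, V6, V7 and V9, the visceral clusters with the highest *Mbp*, made up 18.1% of visceral nuclei in lumbar/sacral cord and 41.6% in the other regions, while V8, at 16.9 CPM ± 2.60, made up 30.5% and 0.0861%. Of the 7 visceral clusters with at least 2 libraries on both sides, the mean of *Mbp* was lower in lumbar/sacral cord in 6 and higher in V1. The ranges of the libraries overlapped between the 2 sides in each of these clusters except V6. The 2 lumbar/sacral libraries of V6 had only 13 and 10 nuclei, with 0 and 2 corrected counts of *Mbp*. What the makeup contributed to the difference was not tested.

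In S3, *Mbp* was at 19.5, 26.9 and 27.98 CPM in cervical replicates 1, 2 and 3, at 17.6, 20.7 and 24.97 CPM in thoracic and at 22.9, 28.1 and 28.2 CPM in lumbar/sacral ones, with a log2 fold change of 0.18 and an adjusted limma p of 0.860 (0.0711% of 9841 genes called, 7 genes, and 12 with the pool as a block). The median log2 fold change of all genes was 0.14 there and 0.00 with the median of ratios, under which that of *Mbp* was 0.04. In interneurons the 3 means were 23.6, 20.9 and 23.6 CPM, with a log2 fold change of 0.09 and an adjusted limma p of 0.9997 (0.051% of 9805 genes called, 5 genes, and 44 with the pool as a block). *Mobp*, *Mog*, *Mag* and *St18* did not reach 10 CPM in 3 library sums of any group and were not in these fits. In the fits without that filter none of the 4 was called in any group, and the lowest unadjusted limma p was 0.0118, for *Mog* in S1 and S2 (adjusted p = 0.951).

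Across the 11 lists of other genes, 2 genes of glial or myelin lists were called between regions, both in visceral MNs, where 2.32% of all genes were called higher and 1.94% lower. *Zfp536* was lower in lumbar/sacral cord, at 31.7 against 107 CPM (log2 fold change −1.64 ± 0.17 SE, adjusted p = 0.000893 by limma). *Slc1a2*, a glutamate transporter gene on the astrocyte list, was higher, at 38.2 against 17.5 CPM (0.94 ± 0.19, adjusted p = 0.0254 by limma). It lost the call without cervical replicate 1 or 3, thoracic replicate 1, or lumbar/sacral replicate 1 or 2, with adjusted p from 0.0521 to 0.145 by limma. Of the list of neuron markers, *Fbn2* and *Rbfox3* were higher and *Zeb2* lower. V8, at 30.5% of lumbar/sacral and 0.0861% of other visceral nuclei, had the highest *Fbn2* of the 21 clusters, 1172 CPM. What the makeup of visceral MNs contributed to these calls, those of *Zfp536* and *Slc1a2* included, was not tested. No gene of the myelin structure, myelin lipid or oligodendrocyte marker lists was called in any of the 4 groups. Only 3 to 4 of their 15, 1 to 3 of their 5 and 1 to 2 of their 18 genes were in the fit of a group. Outside visceral MNs at most 0.0711% of all genes were called, so the lack of calls says little about these lists.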

How the data were processed

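The 9 single-nucleus 3′ libraries (10x Chromium) came from 3 pools of mice. In the authors' processing, Cell Ranger 3.1.0 counted reads on unspliced transcripts of GRCm38, nuclei outside their quality limits were dropped, and each region was normalized with SCTransform in Seurat. The deposited values are treated as a score, since SCTransform-corrected counts are whole-number model values: totals per nucleus spread little in a library (SD 5.85 to 10.7% of the mean). No count model was therefore run. Clusters are the authors' labels, taken to libraries by the barcode suffix. Annotation is GENCODE vM21 on GRCm38.

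Corrected counts were summed per library and cluster or group (at least 10 nuclei) and scaled to CPM. Lumbar/sacral cord was compared with the mean of cervical and thoracic cord by limma 3.58.1 in R 4.3.3, with trend, on log2(CPM + 5), over genes reaching 10 CPM in 3 or more sums, with Benjamini-Hochberg adjustment over all of them and calls at an adjusted p under 0.05. The 3 libraries of a region differ by pool, so p-values measure the spread between pools of 4 mice. On data simulated in this layout, changes were recovered as a check of the code. Shares were compared by an exact permutation test. Other steps used Python 3.11.15, numpy 2.4.6, pandas 2.3.3, scipy 1.17.1 and, for Scrublet doublet calls (1.02% of nuclei, kept), scanpy 1.11.5, with seed 1.

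Libraries of the same replicate number come from the same mice, so the numbers pair them. The deviations of same-numbered libraries from their region's mean correlated with r of −0.220 to 0.922 over genes, and only pairs with cervical replicate 3 were below 0. With the replicate block, calls were 1 in S1 and S2, 12 in S3 (7 without it), 737 in visceral MNs (428) and 44 in interneurons (5), and the adjusted p of *Mbp* was 0.801, 0.540, 0.0757 and 0.962.

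The members and all gene lists were chosen with earlier results of these data known. Named by rule were the members, the 3 list genes highest in S1 and S2 and the 3 highest over all clusters, the 5 genes most like each member among those with at least 10 CPM in a cluster mean, and list genes called between regions. Other list genes were named after their values were seen. Sequences and proteins of the members, and single values of a few list genes, are not reported here. Depth per sum (933479 to 4557316 corrected counts in S1 and S2) limits what can be seen of genes under about 5 CPM.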

Additional observations from a re-analysis of the deposited data

Results flagged for a closer look

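Of 47 groups of 4 to 10 libraries tested, 10 (21.3%) held a library whose gap to the nearest other passed Dixon's 95% value, where chance flags about 1 in 20; the 4 low members have many zeros, which this test does not allow for. For *Mbp* in CPM these were S1 in thoracic replicate 3, at 48.1 against 82.3 to 113 in the other libraries, V1 in lumbar/sacral replicate 3, at 52.9 against 19.6 to 35.04, and V4 in cervical replicate 3, at 75.3 against 21.3 to 44.1. The share of nuclei with *Mbp* was 67.1% in S1 and S2 of thoracic replicate 1, against 38.0 to 52.5% in the others, and 32.8% in S3 of the library labelled cervical replicate 2, the library with the highest totals, against 10.3 to 19.1%.

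Among the low members, *Mobp* was at 5.57 CPM in S1 and S2 of the library labelled cervical replicate 2 (others 0 to 2.54 CPM) and at 3.59 CPM in visceral MNs of lumbar/sacral replicate 2 (others 0 to 1.61 CPM). *Mog* was at 3.78 CPM in S1 and S2 of lumbar/sacral replicate 2 (others 0 to 1.56 CPM). *Mag* was at 4.74 CPM in interneurons of the library labelled cervical replicate 2 (others 0.972 to 2.30 CPM), and *St18* at 8.23 CPM in S3 of cervical replicate 3 (others 0 to 3.62 CPM).

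In all 3 pools, *Mbp* was higher in lumbar/sacral than in other cord in S1 and S2 and in S3, and lower in visceral MNs. The difference of the 2 region changes, chosen for a test after the data were seen, was 0.83 on the log2(CPM + 5) scale between S1 and S2 and visceral MNs (two-sided exact permutation p = 0.0357, 0.107 after adjustment over 6 pairs of groups) and 0.76 between S3 and visceral MNs (exact permutation p = 0.0119, the smallest possible, adjusted 0.0714). Neither passed the adjustment. A single pair could not have passed it, since the smallest possible exact permutation p adjusts to 0.0714 over 6 pairs, so this lack of a pass decides nothing. The first ran from 0.48 to 1.03 over 13 alternatives, with unadjusted exact permutation p from 0.0119 to 0.143.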

How the results depend on the processing

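*Mbp* was at 74.7 to 93.1 CPM in S1 and S2 under all 8 alternatives, within 1 SD of 86.7 CPM; leaving out 1 pool gave the same 74.7 and 93.1 CPM. Its log2 fold change for lumbar/sacral cord kept its sign, and it was not called, under all 16 alternatives in each group: 0.09 to 0.36 in S1 and S2, 0.04 to 0.26 in S3, −0.70 to −0.38 in visceral MNs and 0.01 to 0.17 in interneurons. The difference in the share of nuclei with *Mbp*, −6.88 percentage points, was 7.68 after thinning and −11.4 to −2.59 when 1 pool was left out, and no alternative passed the threshold.

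Counts of genes called moved more. In S1 and S2, 1 gene was called, 0 with a pseudocount of 1 CPM, 0 without both libraries of doubtful label, and 0 to 1 when 1 library was left out (0 without cervical replicate 2, lumbar/sacral replicate 2 or 3). The gene called without lumbar/sacral replicate 1 was lower in lumbar/sacral cord, and so was not *Hoxd11*. In S3, 7 were called, 2 with a pseudocount of 1 CPM, 17 with no filter, 3 with the median of ratios, 12 with the replicate block, 2 without nuclei with an oligodendrocyte marker, 3 without both libraries of doubtful label and 0 to 4 when 1 library was left out (0 without any lumbar/sacral one). In visceral MNs, 428 were called, 737 with the replicate block and 160 to 471 when 1 library was left out, with 160, 176 and 219 without lumbar/sacral replicates 1, 2 and 3 and 267 without cervical replicate 1. In interneurons, 5 were called, 2 with a pseudocount of 1 CPM, 3 with the median of ratios, 44 with the replicate block, 13 without both libraries of doubtful label and 1 to 9 when 1 library was left out (9 without thoracic replicate 2, 5 without cervical replicate 2 and 1 without any other). The causes were not tested. The block changed no call of *Mbp*. The alternative without the libraries of doubtful label was chosen after seeing the data.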
